A study of Mus musculus with 152 samples.

Results

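The livers compared here came from mice fed either LIDPAD, a diet that the series describes as inducing non-alcoholic fatty liver disease (NAFLD), or a purified control diet, in each case for 16 weeks. They were chosen by the labelled feeding duration alone and make up 24 of the series' 152 samples, with 12 samples per diet. All animals were of the inbred strain C57BL/6J and were 8 weeks old when feeding began, and RNA was taken from liver. Sex, diet composition, hour of collection and the number of animals behind a sample are not given in the sources used here. Samples numbered 1 to 4, 5 to 8 and 9 to 12 of a diet were much closer to each other than to the rest of their diet, with a chi-square per gene of 2.00 to 2.21 within such blocks and of 3.72 to 7.79 between blocks. Each block was therefore averaged and counted as 1 library, which left 3 control and 3 LIDPAD libraries. No label says that a block is 1 library. Within blocks the chi-square was still above that of sampling noise between independent reads, and the reason was not tested. No label says that the libraries came from separate mice, so the p-values rest on library-to-library spread that could be technical.

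A liver that takes up more fat than it burns or exports stores it as triglyceride in lipid droplets, and continued storage can be followed by inflammation and by scar formation. Hepatocytes, the main cells of the liver, make cholesterol through a chain of enzymes whose genes are switched on together by the factor SREBP2 when sterols are scarce and are kept down when sterols are plentiful. Macrophages that take up lipid and dead cells turn on a characteristic set of surface and lysosomal genes, while hepatic stellate cells are the main source of fibrillar collagen. In bulk liver RNA, fewer cells of a type and less RNA per cell cannot be told apart, and this holds for every gene described.

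Values are FPM, read counts divided by a size factor and expressed per 1000000 reads, which are not adjusted for gene length, so levels are compared between libraries and never between genes. Depth was 18.7 M to 28.7 M reads per library (M, reads in units of 1000000). Y-linked Ddx3y stood at 75.8 to 96.2 FPM and Xist at 0 to 0.851 FPM across the 6 libraries, which is the pattern of male tissue in every library. Mitochondrial ribosomal RNA took 20.0 to 21.4% of reads. Markers of exocrine pancreas and skeletal muscle, tissues that can be carried along at dissection, were near 0, with summed levels of at most 11.3 FPM over 12 pancreatic genes and 0.745 FPM over 9 muscle genes. On the first principal component, which held 71.3% of the variance, the control libraries lay at -33.4, -41.0 and -34.1 and the LIDPAD libraries at 39.2, 32.2 and 37.1, so diet was the main axis of difference.

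Of 13914 genes tested, 3928 (28.2%) differed between the diets at an adjusted p under 0.05. Of these, 2262 (16.3% of genes tested) were higher on LIDPAD and 1666 (12.0%) were lower, and the median log2 change over all tested genes was 0.00. A change of at least 2-fold was seen in 917 of the higher and 297 of the lower genes, and one of at least 4-fold in 159 and 52. Among all genes tested, 23.5% had every LIDPAD library above every control library and 19.7% had every LIDPAD library below. The split between directions depends on the scale. The deposited totals were 1.03e+06 to 1.10e+06 FPM per control library and 886022 to 941830 FPM per LIDPAD library, and bringing each library to a total of 1000000 raised the median log2 change by 0.20 and gave 3958 higher and 803 lower genes (83.1% higher in place of 57.6%). Read counts recovered from the deposited values gave close to the same number of calls, with 3948 genes by edgeR and 3933 by DESeq2, of which 3805 and 3723 were also called, in the same direction, on FPM.

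The 12 largest rises joined macrophage genes, genes of fat storage and genes with other roles. Gpnmb, a glycoprotein of lipid-laden macrophages (chr6:49036546-49070929, GRCm38), was at 0.155, 0 and 0.443 FPM in control and 45.0, 35.2 and 53.7 FPM in LIDPAD libraries. Gpnmb rose by 6.04 ± 0.24 on the log2 scale (adjusted p = 1.28e-07). Here and below ± is the standard error from limma over 3 libraries per diet, and log2 changes are LIDPAD minus control on the log2(FPM + 0.5) scale, which understates the change of genes near 0. Mmp12, the macrophage elastase, was at 0.300, 0.146 and 0.172 FPM in control and 30.6, 22.8 and 45.0 FPM in LIDPAD libraries. Mmp12 rose by 5.51 ± 0.23 on the log2 scale (adjusted p = 1.59e-07). The lipid-sensing macrophage receptor Trem2 was at 0.194, 0.290 and 0.698 FPM in control and 12.9, 6.86 and 13.4 FPM in LIDPAD libraries. Trem2 rose by 3.68 ± 0.28 on the log2 scale (adjusted p = 9.69e-06). The libraries of the diets did not come near each other for any of these genes. Cidec, which fuses lipid droplets into larger ones, was at 1.42, 1.25 and 1.51 FPM in control and 77.8, 71.1 and 60.2 FPM in LIDPAD libraries. Cidec rose by 5.21 ± 0.13 on the log2 scale (adjusted p = 6.73e-09). Gpat3, an acyltransferase at the entry to triglyceride synthesis, was at 1.41, 0.978 and 0.854 FPM in control and 22.4, 13.2 and 19.4 FPM in LIDPAD libraries. Gpat3 rose by 3.56 ± 0.21 on the log2 scale (adjusted p = 2.02e-06). Osbpl3, a lipid-transfer protein, was at 3.87, 2.16 and 2.23 FPM in control and 75.5, 67.9 and 60.9 FPM in LIDPAD libraries. Osbpl3 rose by 4.43 ± 0.18 on the log2 scale (adjusted p = 1.59e-07). For each of these genes the lowest LIDPAD library was several times the highest control library.

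Other large rises were of genes with roles outside fat storage. Ly6d, a surface protein known from B cell precursors and epithelia, was at 0.929, 0.366 and 0.477 FPM in control and 98.2, 50.7 and 52.6 FPM in LIDPAD libraries. Ly6d rose by 5.92 ± 0.26 on the log2 scale (adjusted p = 2.00e-07). Themis, a signalling protein of developing T cells, was at 0.526, 0.287 and 0.486 FPM in control and 42.4, 43.6 and 28.4 FPM in LIDPAD libraries. Themis rose by 5.36 ± 0.20 on the log2 scale (adjusted p = 9.43e-08). Of the T cell receptor and coreceptor genes on the T and NK cell list only Trbc2 passed the filter, at 0.256, 0.545 and 1.12 FPM in control and 1.16, 1.52 and 1.26 FPM in LIDPAD libraries. For Trbc2 the log2 change was 0.73 ± 0.29 (adjusted p = 0.0857), which missed the threshold. Cd3e was at 0.161 to 0.652 FPM in control and 0.0724 to 0.300 FPM in LIDPAD libraries, and the 20 genes of the T and NK cell list summed to 8.95 to 13.7 FPM and 12.3 to 17.3 FPM. Ephb2, a receptor for ephrins, ranged from 0.182 to 0.488 FPM in control and from 9.52 to 20.5 FPM in LIDPAD libraries (log2 change 4.34 ± 0.28, adjusted p = 3.16e-06). Anxa2, a membrane-binding annexin, ranged from 7.10 to 9.50 FPM in control and from 90.3 to 135 FPM in LIDPAD libraries (log2 change 3.74 ± 0.16, adjusted p = 1.59e-07). Cfd, the complement factor also called adipsin, ranged from 0.311 to 3.72 FPM in control and from 37.9 to 70.5 FPM in LIDPAD libraries (log2 change 4.64 ± 0.47, adjusted p = 4.66e-05). Orm3, of the orosomucoid family of plasma proteins, ranged from 0.273 to 0.702 FPM in control and from 18.6 to 21.8 FPM in LIDPAD libraries (log2 change 4.41 ± 0.19, adjusted p = 1.90e-07). The LIDPAD libraries lay above the control libraries in each case.

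**Figure D1:**
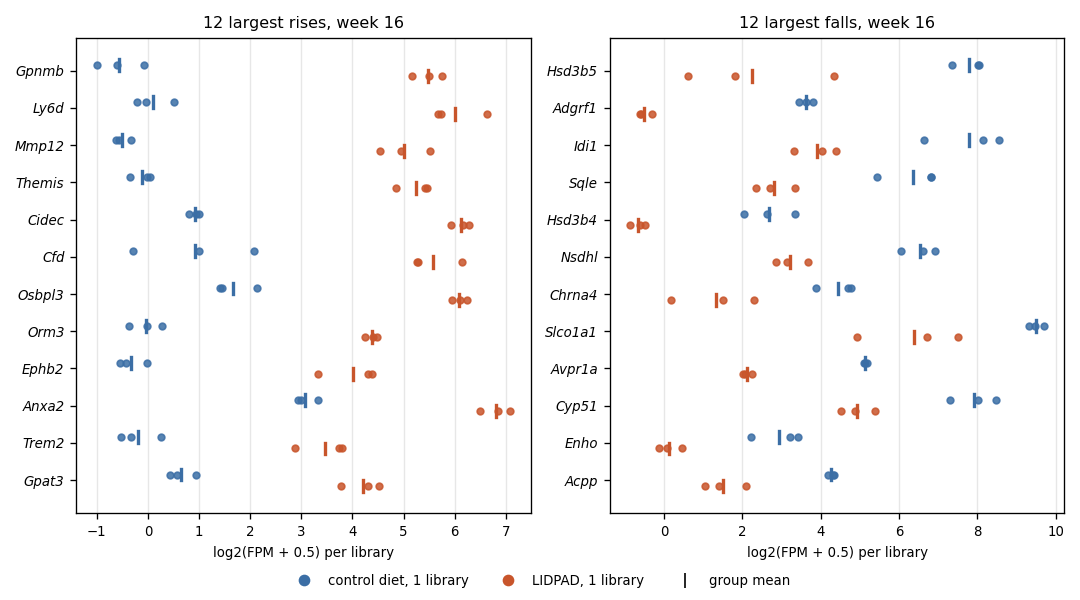
Expression of the 12 largest rises and 12 largest falls among called genes, per library on the log2(FPM + 0.5) scale, control in blue and LIDPAD in orange, with vertical bars at the group means. The diets do not overlap for any gene shown, and the LIDPAD libraries of Hsd3b5 and Slco1a1 are the most spread.

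Among the 12 largest falls, 4 were enzymes of cholesterol synthesis (Idi1, Sqle, Nsdhl and Cyp51), described below. Hsd3b5, a steroid dehydrogenase expressed mainly in male mouse liver (chr3:98618634-98630252, GRCm38), was at 257, 263 and 162 FPM in control and 1.03, 19.7 and 3.00 FPM in LIDPAD libraries. Hsd3b5 fell by 5.55 ± 0.68 on the log2 scale (adjusted p = 0.000174). Its neighbour Hsd3b4 was at 9.56, 5.72 and 3.64 FPM in control and 0.147, 0.213 and 0.0497 FPM in LIDPAD libraries. Hsd3b4 fell by 3.33 ± 0.30 on the log2 scale (adjusted p = 2.61e-05). These are near-identical family members, so reads may have been split between them. Slco1a1, an organic anion transporter, was at 829.6, 704 and 639 FPM in control and 30.0, 179.8 and 105 FPM in LIDPAD libraries. Slco1a1 fell by 3.11 ± 0.47 on the log2 scale (adjusted p = 0.000644). LIDPAD library 2 was the highest of its group for Hsd3b5 and Slco1a1 and still lay far below the control libraries. Adgrf1, an adhesion G protein-coupled receptor, ranged from 10.4 to 13.4 FPM in control and from 0.147 to 0.304 FPM in LIDPAD libraries (log2 change -4.14 ± 0.19, adjusted p = 3.00e-07). The vasopressin receptor gene Avpr1a ranged from 33.7 to 36.0 FPM in control and from 3.57 to 4.20 FPM in LIDPAD libraries (log2 change -3.03 ± 0.12, adjusted p = 1.28e-07). Chrna4, a nicotinic receptor subunit, ranged from 14.2 to 26.6 FPM in control and from 0.633 to 4.39 FPM in LIDPAD libraries (log2 change -3.11 ± 0.43, adjusted p = 0.000358). Enho, which encodes the secreted peptide adropin, ranged from 4.13 to 10.1 FPM in control and from 0.417 to 0.870 FPM in LIDPAD libraries (log2 change -2.81 ± 0.30, adjusted p = 7.01e-05). The phosphatase gene Acpp ranged from 17.6 to 19.7 FPM in control and from 1.57 to 3.73 FPM in LIDPAD libraries (log2 change -2.76 ± 0.23, adjusted p = 1.40e-05).

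Gene lists for pathways and cell types, 38 in number, place these genes in context. Each is given by how many tested members were called in each direction, to be read against the 16.3% of all tested genes that were higher and the 12.0% that were lower. Some genes stand on more than 1 list, among them Spp1, Mmp12, Lpl, Plin2, Cidec, Vim and Fgb.

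Cholesterol synthesis was the most uniformly lowered pathway of the lists. Of 25 members tested, 24 fell, none rose, and the median log2 change was -1.94. Hmgcs1, the synthase of an early step, was at 551, 179.7 and 513 FPM in control and 95.8, 65.6 and 92.5 FPM in LIDPAD libraries. Hmgcs1 fell by 2.14 ± 0.34 on the log2 scale (adjusted p = 0.000895). Idi1, the isomerase that interconverts the isoprene units, was at 375, 99.2 and 282 FPM in control and 15.7, 9.45 and 20.3 FPM in LIDPAD libraries. Idi1 fell by 3.87 ± 0.41 on the log2 scale (adjusted p = 6.36e-05). Sqle, the squalene epoxidase and a further control point, was at 112, 42.8 and 112 FPM in control and 6.03, 4.63 and 9.72 FPM in LIDPAD libraries. Sqle fell by 3.55 ± 0.34 on the log2 scale (adjusted p = 3.63e-05). Control library 2 was the lowest control library for each of these genes, and every LIDPAD library lay below it. Among the later steps, from lanosterol onward, Cyp51 was at 356, 156 and 257 FPM in control and 29.0, 22.2 and 41.0 FPM in LIDPAD libraries. Cyp51 fell by 3.01 ± 0.27 on the log2 scale (adjusted p = 2.56e-05). Tm7sf2 was at 106, 78.2 and 73.7 FPM in control and 11.0, 13.2 and 14.8 FPM in LIDPAD libraries. Tm7sf2 fell by 2.67 ± 0.15 on the log2 scale (adjusted p = 1.34e-06). Nsdhl was at 120.3, 65.4 and 97.7 FPM in control and 8.36, 6.76 and 12.2 FPM in LIDPAD libraries. Nsdhl fell by 3.30 ± 0.23 on the log2 scale (adjusted p = 5.47e-06).

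**Figure D2:**
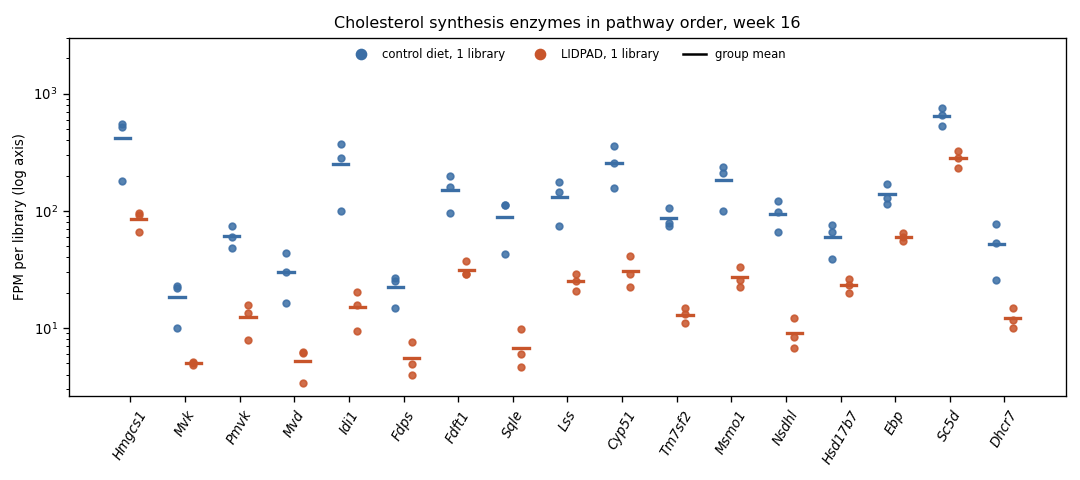
FPM per library on a log axis for 17 enzymes of cholesterol synthesis, in pathway order from left to right, control in blue and LIDPAD in orange, with bars at the group means. The LIDPAD libraries lie below all control libraries for every enzyme shown, and 1 control library is the lowest of its group for most enzymes.

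Regulators and other sources of sterol fell as well. Insig1, which holds SREBP2 in the endoplasmic reticulum and is itself its target, was at 651, 495 and 448 FPM in control and 192, 115 and 226 FPM in LIDPAD libraries. Insig1 fell by 1.62 ± 0.22 on the log2 scale (adjusted p = 0.000326). Stard4, a sterol carrier, ranged from 90.0 to 132 FPM in control and from 20.5 to 35.2 FPM in LIDPAD libraries (log2 change -1.89 ± 0.19, adjusted p = 4.91e-05). Srebf2 itself ranged from 25.3 to 47.5 FPM in control and from 18.8 to 22.1 FPM in LIDPAD libraries (log2 change -0.74 ± 0.19, adjusted p = 0.0124), with an adjusted p of 0.0519 without LIDPAD library 3. Leaving out any single library left 23 to 25 of the 25 members lowered.

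The promoters of these genes are shown because the members fell together and share a short element. RefSeq promoters (GRCm38.p6) were matched for 17 of the 25 genes, and the 250 bases before the start were searched on either strand for CCAAT, the binding letters of the factor NF-Y, and for TCACNCCAC, the sterol element known from SREBP target genes. The CCAAT letters were found in 16 of 17 (all but Acat2), against 37.5% of 27025 genes searched in the same way. The sterol element letters were found in 1 of 17 (Hmgcs1), against 1.22% of all genes. A match of letters is a description of the sequence and does not show that a factor was bound. Below are 3 of these windows, each read 5′ to 3′ on the gene's own strand, with capitals marking CCAAT in either orientation (ATTGG on the opposite strand) and the sterol element, which do not overlap in the windows shown. They come from Hmgcs1 (chr13:119690101-119690350, plus strand), Idi1 (chr13:8885356-8885605, plus strand) and Nsdhl (chrX:72918271-72918520, plus strand).
Hmgcs1: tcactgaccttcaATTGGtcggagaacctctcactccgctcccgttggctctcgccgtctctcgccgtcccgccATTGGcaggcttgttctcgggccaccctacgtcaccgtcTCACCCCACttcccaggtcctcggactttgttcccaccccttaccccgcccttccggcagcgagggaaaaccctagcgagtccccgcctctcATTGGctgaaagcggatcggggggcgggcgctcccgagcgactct
Idi1: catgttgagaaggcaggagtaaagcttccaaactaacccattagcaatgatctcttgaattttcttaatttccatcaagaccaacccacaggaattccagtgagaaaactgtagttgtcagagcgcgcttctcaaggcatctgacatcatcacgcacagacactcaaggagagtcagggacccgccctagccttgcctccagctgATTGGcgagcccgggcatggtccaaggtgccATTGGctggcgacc
Nsdhl: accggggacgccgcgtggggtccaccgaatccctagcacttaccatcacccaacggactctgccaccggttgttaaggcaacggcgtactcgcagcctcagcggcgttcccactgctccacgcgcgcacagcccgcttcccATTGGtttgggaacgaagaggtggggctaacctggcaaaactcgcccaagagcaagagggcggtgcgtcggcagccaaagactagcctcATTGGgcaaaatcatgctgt
In Hmgcs1 the matches begin 237, 176 and 45 bases before the start and the sterol element lies between the last pair of them, while in Idi1 the matches begin 45 and 14 bases and in Nsdhl 109 and 20 bases before the start.

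Fatty acid and triglyceride synthesis was divided. Of 20 members tested, 10 fell and 2 rose (median -0.55). Acss2, which makes acetyl-CoA from acetate, was at 404, 276 and 385 FPM in control and 54.5, 51.9 and 70.2 FPM in LIDPAD libraries. Acss2 fell by 2.58 ± 0.16 on the log2 scale (adjusted p = 2.02e-06). Acly, which makes it from citrate, was at 628, 571 and 654 FPM in control and 332, 148 and 281 FPM in LIDPAD libraries. Acly fell by 1.36 ± 0.23 on the log2 scale (adjusted p = 0.00144). Acacb, Fads1, Me1 and Lpin1 fell by 1.30, 1.06, 0.92 and 1.33 on the log2 scale. Fasn, the fatty acid synthase, was at 1605, 2354 and 2130.3 FPM in control and 1744, 568 and 1295 FPM in LIDPAD libraries. For Fasn the log2 change was -0.88 ± 0.33 (adjusted p = 0.0694), which missed the threshold. LIDPAD library 2 was the lowest of the 6. Against the rest of the list, Scd1, the desaturase that makes oleate, was at 4019, 5498 and 5180.4 FPM in control and 12978, 9031 and 18634 FPM in LIDPAD libraries. Scd1 rose by 1.42 ± 0.28 on the log2 scale (adjusted p = 0.00336). Mogat1, a monoacylglycerol acyltransferase, was at 0.150, 0.287 and 0.311 FPM in control and 2.37, 3.26 and 2.85 FPM in LIDPAD libraries. Mogat1 rose by 2.15 ± 0.23 on the log2 scale (adjusted p = 6.22e-05). Srebf1, the factor that drives many of these genes, was at 303, 472 and 283 FPM in control and 479.8, 352 and 411 FPM in LIDPAD libraries. For Srebf1 the log2 change was 0.26 ± 0.18 (adjusted p = 0.325), which missed the threshold.

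Genes of lipid droplets and fatty acid uptake rose. Of 20 members tested, 13 rose and 1 fell (median 1.11). Plin4, a droplet coat protein, was at 11.0, 11.3 and 7.30 FPM in control and 135, 109 and 94.3 FPM in LIDPAD libraries. Plin4 rose by 3.46 ± 0.17 on the log2 scale (adjusted p = 5.80e-07). Plin2, the main coat protein of hepatocyte droplets, was at 251, 116 and 152 FPM in control and 584, 485 and 587 FPM in LIDPAD libraries. Plin2 rose by 1.74 ± 0.22 on the log2 scale (adjusted p = 0.000219). The fatty acid transporter gene Cd36 was at 53.2, 34.1 and 32.1 FPM in control and 333, 306 and 307 FPM in LIDPAD libraries. Cd36 rose by 3.01 ± 0.16 on the log2 scale (adjusted p = 8.72e-07). Lpl, which releases fatty acids from lipoproteins, ranged from 11.8 to 14.5 FPM in control and from 64.0 to 89.1 FPM in LIDPAD libraries (log2 change 2.52 ± 0.14, adjusted p = 1.33e-06). G0s2, an inhibitor of the droplet lipase, ranged from 15.0 to 22.8 FPM in control and from 68.0 to 84.9 FPM in LIDPAD libraries (log2 change 1.99 ± 0.15, adjusted p = 8.39e-06). Pparg, a nuclear receptor that drives fat storage, ranged from 5.40 to 7.24 FPM in control and from 21.2 to 28.8 FPM in LIDPAD libraries (log2 change 1.92 ± 0.15, adjusted p = 1.14e-05). Cidea was at 0.158, 0 and 0 FPM in control and 4.96, 7.81 and 3.69 FPM in LIDPAD libraries. Cidea rose by 3.39 ± 0.28 on the log2 scale (adjusted p = 1.38e-05). The bile acid CoA ligase and transporter Slc27a5 was the member that fell (log2 change -0.54 ± 0.13, adjusted p = 0.0106), with an adjusted p of 0.0544 without LIDPAD library 1. Cidec, Cidea and Cfd are also adipocyte genes, while the defining adipocyte markers were near 0: Adipoq at 0 to 0.0790 FPM in control and 0 FPM in every LIDPAD library, Plin1 at 0 to 0.0998 and 0 to 0.0917 FPM, and Lep and Retn at 0 in all 6 libraries. Of 10 genes of the adipocyte list 5 were tested and 3 of these rose.

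Fatty acid oxidation changed in part. Of 24 members tested, 8 rose and 1 fell (median 0.38), and 14 rose after rescaling each library to a total of 1000000. Vnn1, a PPAR alpha target that makes cysteamine, was at 37.7, 16.3 and 14.5 FPM in control and 119, 122 and 104 FPM in LIDPAD libraries. Vnn1 rose by 2.44 ± 0.27 on the log2 scale (adjusted p = 9.22e-05). The peroxisomal thiolase gene Acaa1b was at 281, 199 and 167 FPM in control and 1056, 875 and 886 FPM in LIDPAD libraries. Acaa1b rose by 2.15 ± 0.17 on the log2 scale (adjusted p = 1.15e-05). Acot2, a mitochondrial acyl-CoA thioesterase, ranged from 1.57 to 6.70 FPM in control and from 14.5 to 17.3 FPM in LIDPAD libraries (log2 change 1.97 ± 0.35, adjusted p = 0.00188). Ehhadh of the peroxisomal pathway ranged from 105 to 138 FPM in control and from 233 to 250.3 FPM in LIDPAD libraries (log2 change 0.98 ± 0.11, adjusted p = 8.59e-05). Cpt1a, the gate of mitochondrial oxidation, ranged from 140.1 to 242 FPM in control and from 277 to 333 FPM in LIDPAD libraries (log2 change 0.62 ± 0.17, adjusted p = 0.0202), with an adjusted p of 0.0671 without LIDPAD library 2. Ppargc1a, a coactivator of mitochondrial genes, ranged from 14.2 to 15.8 FPM in control and from 7.47 to 9.25 FPM in LIDPAD libraries (log2 change -0.78 ± 0.13, adjusted p = 0.000955). Cyp4a10 (log2 change 0.79 ± 0.30, adjusted p = 0.0698) and Cyp4a14 (log2 change -0.44 ± 0.22, adjusted p = 0.163), which are classical PPAR alpha targets, did not pass the test. Control library 1 was the highest control library for Vnn1, Acaa1b, Acot2, Cyp4a10 and Cyp4a14, and without it 15 members rose in place of 8. The respiratory chain list showed no calls in 21 members tested (median -0.08, and 0.13 after rescaling, the only list median that changed sign), with 0 calls by limma, 1 by edgeR and 3 by DESeq2, all lower.

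Bile acid genes moved both ways, with 6 lower and 4 higher of 19 tested. Slc10a1, which takes up bile salts from blood, was at 382, 374 and 453 FPM in control and 102, 164 and 107 FPM in LIDPAD libraries. Slc10a1 fell by 1.72 ± 0.16 on the log2 scale (adjusted p = 3.53e-05). Akr1d1, a reductase of bile acid synthesis, was at 147, 150.1 and 127 FPM in control and 50.3, 72.1 and 63.7 FPM in LIDPAD libraries. Akr1d1 fell by 1.19 ± 0.13 on the log2 scale (adjusted p = 7.99e-05). Cyp7b1 of the alternative synthesis pathway ranged from 76.2 to 180.3 FPM in control and from 24.4 to 57.6 FPM in LIDPAD libraries (log2 change -1.63 ± 0.32, adjusted p = 0.00298). The bile salt export pump gene Abcb11 ranged from 496 to 655 FPM in control and from 329 to 406 FPM in LIDPAD libraries (log2 change -0.65 ± 0.14, adjusted p = 0.00441). Cyp7a1, the rate-limiting enzyme, was at 51.0, 69.0 and 106 FPM in control and 42.1, 156 and 57.4 FPM in LIDPAD libraries. For Cyp7a1 the log2 change was 0.01 ± 0.40 (adjusted p = 0.992), which missed the threshold. LIDPAD library 2 was the highest of all and the diets overlapped. The members that rose were transporters: Abcb4, which exports phospholipid into bile, was at 175, 146 and 181 FPM in control and 418, 404 and 402 FPM in LIDPAD libraries (log2 change 1.29 ± 0.10, adjusted p = 1.30e-05), and Abcc3, Abcc4 and Abcg5 rose by 0.85, 1.69 and 0.89 on the log2 scale. Hsd3b7 was at 0 in every library and was not tested.

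Genes of glucose and amino acid handling fell more often than they rose. In the glucose list 7 of 16 fell and 1 rose, and the count of lower members was 3 without LIDPAD library 3 and 3 after rescaling. Ppp1r3c, a subunit that targets phosphatase to glycogen, was at 105, 125 and 86.0 FPM in control and 25.2, 18.8 and 21.9 FPM in LIDPAD libraries. Ppp1r3c fell by 2.23 ± 0.15 on the log2 scale (adjusted p = 3.67e-06). Ppp1r3b of the same kind was at 259, 312 and 259 FPM in control and 157, 114 and 130.0 FPM in LIDPAD libraries. Ppp1r3b fell by 1.05 ± 0.13 on the log2 scale (adjusted p = 0.000155). The insulin receptor substrate gene Irs2 was at 25.1, 25.1 and 30.6 FPM in control and 14.8, 14.0 and 12.0 FPM in LIDPAD libraries. Irs2 fell by 0.96 ± 0.13 on the log2 scale (adjusted p = 0.00026). Pck1, the rate-limiting enzyme of gluconeogenesis, was at 435, 343 and 406 FPM in control and 248, 369 and 464 FPM in LIDPAD libraries. For Pck1 the log2 change was -0.17 ± 0.19 (adjusted p = 0.554), which missed the threshold. Pcx was called higher (log2 change 0.30 ± 0.10, adjusted p = 0.0472) and lost that call when any single library was left out, with adjusted p of 0.0516 to 0.144. In the urea cycle and amino acid list 10 of 16 fell and 1 rose (median -0.52). Cps1, which commits ammonia to the urea cycle, was at 2674, 3068 and 2804 FPM in control and 1108, 1333 and 1411 FPM in LIDPAD libraries. Cps1 fell by 1.15 ± 0.14 on the log2 scale (adjusted p = 0.000195). Hal, which degrades histidine, was at 97.8, 112 and 128 FPM in control and 31.4, 33.1 and 42.6 FPM in LIDPAD libraries. Hal fell by 1.65 ± 0.13 on the log2 scale (adjusted p = 1.41e-05). The methyl transferase gene Gnmt was at 403, 450.1 and 409 FPM in control and 122, 199 and 129 FPM in LIDPAD libraries. Gnmt fell by 1.52 ± 0.16 on the log2 scale (adjusted p = 7.08e-05). Oat was the member called higher (log2 change 0.80 ± 0.23, adjusted p = 0.0216), a call lost without LIDPAD library 2 (adjusted p = 0.0599), control library 2 (0.0578) or control library 3 (0.0796).

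Detoxification genes differed between families. Of 15 cytochrome P450 and drug metabolism genes tested, 7 rose and 3 fell. Cyp3a11, the main inducible P450 of mouse liver, was at 552, 387 and 338 FPM in control and 2602, 1899 and 2449 FPM in LIDPAD libraries. Cyp3a11 rose by 2.46 ± 0.19 on the log2 scale (adjusted p = 8.86e-06). Cyp2a5 was at 142, 246 and 147 FPM in control and 443, 608 and 781 FPM in LIDPAD libraries (log2 change 1.78 ± 0.23, adjusted p = 0.000227), while Cyp2c29 (log2 change -1.09 ± 0.28, adjusted p = 0.0125) and Cyp1a2 (log2 change -0.72 ± 0.17, adjusted p = 0.00813) fell. Cyp2c29 and Cyp3a11 have close relatives with which reads may be shared. The count of higher members was 4 without LIDPAD library 3. Of 15 glutathione and NRF2 target genes, 10 rose and none fell (median 1.17). Srxn1, which repairs oxidised peroxiredoxins, was at 29.3, 27.5 and 47.2 FPM in control and 114, 93.2 and 142 FPM in LIDPAD libraries. Srxn1 rose by 1.75 ± 0.20 on the log2 scale (adjusted p = 9.77e-05). Gstm3 was at 31.1, 43.7 and 73.3 FPM in control and 192, 163 and 239.9 FPM in LIDPAD libraries. Gstm3 rose by 2.06 ± 0.25 on the log2 scale (adjusted p = 0.000156). Hmox1, the haem oxygenase gene, was at 9.47, 6.06 and 7.39 FPM in control and 21.0, 14.3 and 20.5 FPM in LIDPAD libraries. Hmox1 rose by 1.23 ± 0.19 on the log2 scale (adjusted p = 0.000609). Gsta1 and Gsta2 also rose by 3.06 and 2.07 on the log2 scale but are near-identical copies between which reads may be split. Gclc and Gclm, the subunits of the rate-limiting enzyme of glutathione synthesis, did not pass the test (log2 change 0.19 ± 0.11, adjusted p = 0.232 and log2 change -0.11 ± 0.10, adjusted p = 0.419).

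Of 17 genes of the ATF4 and endoplasmic reticulum stress list, 2 rose and 3 fell, and 4 rose after rescaling. The stress-induced factor gene Atf3 was at 1.08, 2.01 and 0.822 FPM in control and 10.2, 7.40 and 13.7 FPM in LIDPAD libraries. Atf3 rose by 2.61 ± 0.27 on the log2 scale (adjusted p = 5.63e-05). Atf4, Asns and Phgdh fell by 0.55, 1.27 and 1.26 on the log2 scale, and the chaperone gene Hspa5 was at 872, 573 and 527 FPM in control and 873, 782 and 945 FPM in LIDPAD libraries. For Hspa5 the log2 change was 0.43 ± 0.18 (adjusted p = 0.091), which missed the threshold. Creld2 was called higher (log2 change 1.07 ± 0.29, adjusted p = 0.0164), with adjusted p of 0.0572, 0.0564, 0.0551 and 0.0623 without LIDPAD library 1, LIDPAD library 3, control library 2 and control library 3.

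Genes that define hepatocytes were lower. Of 14 tested, 10 fell and none rose (median -0.65). Serpina1c, a copy of the alpha-1 antitrypsin gene, was at 8756, 7723 and 7338 FPM in control and 3007, 4050.4 and 3758 FPM in LIDPAD libraries. Serpina1c fell by 1.15 ± 0.19 on the log2 scale (adjusted p = 0.00128). Fgb, a fibrinogen chain, was at 4168, 2924 and 2895 FPM in control and 1254, 1354 and 1447 FPM in LIDPAD libraries. Fgb fell by 1.28 ± 0.17 on the log2 scale (adjusted p = 0.000275). The master regulator gene Hnf4a ranged from 408 to 522 FPM in control and from 308 to 323 FPM in LIDPAD libraries (log2 change -0.54 ± 0.11, adjusted p = 0.00399). Albumin, Alb, was at 62169, 49759 and 57963 FPM in control and 25715, 26077 and 32182 FPM in LIDPAD libraries. For Alb the log2 change was -1.02 ± 0.38 (adjusted p = 0.0709), which missed the threshold. The diets did not overlap for Alb, and the call depended on the test, with an adjusted p of 0.00115 in edgeR, 1.29e-13 in DESeq2 and 0.0301 in limma after rescaling (log2 change -0.81). Summed levels of the hepatocyte list were 99713 to 116420 FPM in control and 56844 to 64968 FPM in LIDPAD libraries. The summed levels of lipid-associated macrophage, stellate and ductular markers, given with those lists, were higher in every LIDPAD library than in every control library, while those of Kupffer cell markers overlapped. Their part in the lower hepatocyte values was not tested.

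The male-pattern liver genes, which depend on pulsed growth hormone, included 11 lower and 1 higher of 18 tested (median -0.74). Elovl3, a fatty acid elongase, was at 98.2, 47.6 and 68.8 FPM in control and 12.8, 16.8 and 18.4 FPM in LIDPAD libraries. Elovl3 fell by 2.08 ± 0.22 on the log2 scale (adjusted p = 6.84e-05). The complement gene C8a was at 1009, 814 and 857 FPM in control and 373, 457 and 406 FPM in LIDPAD libraries. C8a fell by 1.11 ± 0.12 on the log2 scale (adjusted p = 8.14e-05). Igf1, Igfals and Ghr, the hormone's main targets and its receptor, fell by 0.67, 1.12 and 0.56 on the log2 scale. The major urinary protein genes did not move together: Mup3 fell (log2 change -1.63 ± 0.22, adjusted p = 0.000354), Mup20 rose (log2 change 0.78 ± 0.19, adjusted p = 0.00999), and Mup1 did not pass the test (log2 change 0.08 ± 0.31, adjusted p = 0.87). These genes are near-copies and their reads may be split.

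In the acute phase list, 5 of 17 fell and 2 rose. Itih3, an inter-alpha-trypsin inhibitor chain, was at 1209, 1285 and 1091 FPM in control and 534, 500.5 and 461 FPM in LIDPAD libraries. Itih3 fell by 1.26 ± 0.12 on the log2 scale (adjusted p = 2.71e-05). Orm3 and Steap4 (log2 change 1.03 ± 0.17, adjusted p = 0.000944) rose. Control library 2 stood apart in this list. Saa1 was at 116, 1591 and 271 FPM in control and 209.9, 184 and 251 FPM in LIDPAD libraries. For Saa1 the log2 change was -0.79 ± 0.68 (adjusted p = 0.425), which missed the threshold. Saa3 was at 1.44, 118 and 2.62 FPM in control and 9.50, 7.01 and 13.9 FPM in LIDPAD libraries. For Saa3 the log2 change was 0.20 ± 1.15 (adjusted p = 0.918), which missed the threshold. Lcn2, a siderophore-binding protein, was at 14.2, 229 and 31.5 FPM in control and 145, 124 and 139 FPM in LIDPAD libraries. For Lcn2 the log2 change was 1.51 ± 0.72 (adjusted p = 0.144), which missed the threshold. Without that library 5 members rose, and the log2 changes became 2.06 for Saa3 (adjusted p = 0.00049), 2.65 for Lcn2 (4.71e-05), 1.65 for Orm2 (0.00115) and 0.26 for Saa1 (0.544). Saa1 and Saa2 are near-copies.

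Of 18 circadian clock genes tested, 6 fell and none rose. Nr1d1, the repressor REV-ERB alpha, was at 68.4, 61.1 and 66.9 FPM in control and 25.2, 29.0 and 21.8 FPM in LIDPAD libraries. Nr1d1 fell by 1.36 ± 0.12 on the log2 scale (adjusted p = 1.82e-05). Arntl, a core activator, was at 9.32, 4.08 and 6.19 FPM in control and 3.85, 3.30 and 2.50 FPM in LIDPAD libraries. Arntl fell by 0.87 ± 0.26 on the log2 scale (adjusted p = 0.0276). The Arntl call was lost without LIDPAD library 2 (adjusted p = 0.0547), LIDPAD library 3 (0.104), control library 1 (0.085) or control library 3 (0.064). Dbp, an output gene that peaks at another hour, was at 29.6, 43.9 and 30.6 FPM in control and 31.1, 41.0 and 27.8 FPM in LIDPAD libraries. For Dbp the log2 change was -0.05 ± 0.17 (adjusted p = 0.849), which missed the threshold. The count of lower members was 3 without LIDPAD library 3 and 1 after rescaling. The log2 ratio of Arntl to Dbp, which follows the hour, ranged from -3.27 to -1.61 in control and from -3.45 to -2.86 in LIDPAD libraries.

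Lipid-associated macrophage genes were the most raised cell type list with over 10 tested members. Of 16 tested, 15 rose and 1 fell (median 2.69). Beside Gpnmb, Mmp12 and Trem2, the integrin gene Itgax was at 1.05, 1.54 and 0.613 FPM in control and 18.5, 13.6 and 20.8 FPM in LIDPAD libraries. Itgax rose by 3.55 ± 0.23 on the log2 scale (adjusted p = 3.73e-06). Spp1, which encodes osteopontin, was at 16.0, 15.2 and 14.6 FPM in control and 149, 95.4 and 109 FPM in LIDPAD libraries. Spp1 rose by 2.88 ± 0.14 on the log2 scale (adjusted p = 5.80e-07). The galectin gene Lgals3 was at 2.54, 1.33 and 1.82 FPM in control and 29.9, 17.4 and 29.0 FPM in LIDPAD libraries. Lgals3 rose by 3.43 ± 0.23 on the log2 scale (adjusted p = 4.85e-06). The monocyte chemokine receptor gene Ccr2 was at 1.26, 1.89 and 1.84 FPM in control and 15.2, 13.7 and 16.7 FPM in LIDPAD libraries. Ccr2 rose by 2.87 ± 0.17 on the log2 scale (adjusted p = 1.77e-06). Cd68, a general macrophage marker, ranged from 4.07 to 5.55 FPM in control and from 18.4 to 27.6 FPM in LIDPAD libraries (log2 change 2.07 ± 0.17, adjusted p = 1.41e-05). Fabp5 fell, from 50.6, 32.9 and 32.0 FPM in control to 7.76, 7.56 and 10.9 FPM in LIDPAD libraries (log2 change -2.06 ± 0.19, adjusted p = 2.78e-05). Fabp5 is a fatty acid carrier found in other liver cells too. Summed levels of the list were 202 to 362 FPM in control and 817 to 1048 FPM in LIDPAD libraries, and the sum includes Plin2 and Lpl, which hepatocytes and other cells express.

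The genes of resident Kupffer cells, the macrophages present in healthy liver, were divided. Of 12 tested, 5 rose and 3 fell (median 0.12), and the summed level was 547 to 741 FPM in control and 655 to 788 FPM in LIDPAD libraries. Clec4f, their most specific marker, was at 67.7, 35.0 and 50.7 FPM in control and 70.3, 53.0 and 89.3 FPM in LIDPAD libraries. For Clec4f the log2 change was 0.49 ± 0.23 (adjusted p = 0.136), which missed the threshold. Timd4, a receptor of the embryo-derived cells, was at 9.24, 3.93 and 4.27 FPM in control and 2.56, 1.86 and 6.16 FPM in LIDPAD libraries. For Timd4 the log2 change was -0.70 ± 0.38 (adjusted p = 0.199), which missed the threshold. Marco was at 20.9, 12.4 and 1.75 FPM in control and 4.98, 2.46 and 7.38 FPM in LIDPAD libraries. For Marco the log2 change was -0.76 ± 0.66 (adjusted p = 0.429), which missed the threshold. Cd163, the haemoglobin scavenger receptor gene, was at 10.7, 14.5 and 17.8 FPM in control and 3.38, 3.97 and 7.48 FPM in LIDPAD libraries. Cd163 fell by 1.49 ± 0.26 on the log2 scale (adjusted p = 0.00148). Cd5l, Adgre1 and Csf1r, which other macrophages can also express, rose by 1.49, 1.17 and 1.04 on the log2 scale. Vsig4 was also called higher, a call lost without LIDPAD library 3 (log2 change 0.825, adjusted p = 0.0578). Folr2 did not pass the filter on low values.

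**Figure D3:**
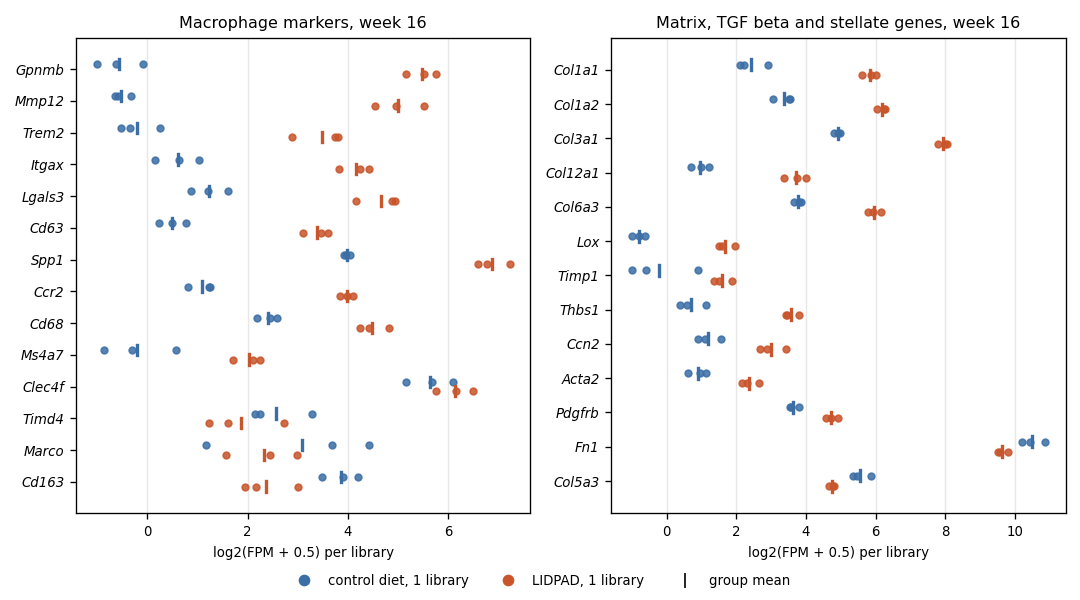
Expression per library on the log2(FPM + 0.5) scale of macrophage genes (left) and of matrix, TGF beta and stellate genes (right), control in blue and LIDPAD in orange, with bars at the group means. Markers of lipid-associated macrophages are separated between the diets, the Kupffer markers Clec4f, Timd4 and Marco overlap, and Fn1 and Col5a3 are lower on LIDPAD while the other matrix genes are higher.

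Genes that present antigen on MHC class II molecules rose. Of 18 members tested, which include class I genes, 13 rose and none fell (median 1.19). H2-Aa was at 13.3, 11.6 and 17.5 FPM in control and 90.4, 82.1 and 94.7 FPM in LIDPAD libraries. H2-Aa rose by 2.63 ± 0.14 on the log2 scale (adjusted p = 8.37e-07). H2-Ab1 was at 8.50, 6.84 and 11.2 FPM in control and 61.2, 56.3 and 59.3 FPM in LIDPAD libraries. H2-Ab1 rose by 2.69 ± 0.15 on the log2 scale (adjusted p = 1.34e-06). Cd74, the invariant chain that escorts class II molecules, was at 27.5, 20.5 and 37.0 FPM in control and 142, 139 and 145 FPM in LIDPAD libraries. Cd74 rose by 2.35 ± 0.17 on the log2 scale (adjusted p = 6.32e-06). Ciita, the master activator of class II genes, ranged from 2.17 to 3.18 FPM in control and from 7.21 to 9.44 FPM in LIDPAD libraries (log2 change 1.51 ± 0.18, adjusted p = 0.000158). Ubd, a ubiquitin-like protein induced by inflammatory cytokines, was at 0.726, 0.482 and 0.865 FPM in control and 14.0, 9.69 and 10.7 FPM in LIDPAD libraries. Ubd rose by 3.33 ± 0.20 on the log2 scale (adjusted p = 2.02e-06). Of the class I genes, H2-K1 (log2 change 0.08 ± 0.10, adjusted p = 0.578) and B2m (log2 change 0.13 ± 0.11, adjusted p = 0.433) did not pass the test, and H2-D1 rose (log2 change 0.39 ± 0.10, adjusted p = 0.0116). The H2 genes are close relatives, and reads may be split among them. RefSeq promoters were matched for 13 of the 18 genes. CCAAT was present within 250 bases in 10 of them, against 37.5% of all genes searched. The sterol element letters were present in 1 of the 13, against 1.22% of all genes. The last 100 bases before the start of 3 class II genes are shown because these genes rose together and NF-Y is a known part of the complex on class II promoters, with CCAAT in either orientation in capitals. They come from H2-Aa (chr17:34287824-34287923, minus strand), H2-Eb1 (chr17:34305767-34305866, plus strand) and H2-DMb1 (chr17:34153091-34153190, plus strand), GRCm38.p6.
H2-Aa: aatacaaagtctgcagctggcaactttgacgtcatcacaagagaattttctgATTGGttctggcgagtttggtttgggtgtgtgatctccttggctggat
H2-Eb1: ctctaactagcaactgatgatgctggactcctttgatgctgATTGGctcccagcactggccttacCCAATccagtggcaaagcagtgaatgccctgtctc
H2-DMb1: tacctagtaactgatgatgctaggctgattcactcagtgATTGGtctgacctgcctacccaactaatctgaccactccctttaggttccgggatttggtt
The letters begin 48 bases before the start in H2-Aa, 59 and 35 bases before it in H2-Eb1, and 61 bases before it in H2-DMb1. H2-Eb1 rose by 2.72 and H2-DMb1 by 2.35 on the log2 scale.

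Chemokine and cytokine signalling genes were raised. Of 20 chemokine genes, 10 passed the filter, and of these 8 rose and 1 fell (4 rose with a filter of 5 FPM). Ccl2, which draws monocytes that carry Ccr2, was at 0.0790, 0.182 and 0.231 FPM in control and 4.94, 3.06 and 6.17 FPM in LIDPAD libraries. Ccl2 rose by 2.94 ± 0.26 on the log2 scale (adjusted p = 2.34e-05). Ccl6 was at 3.68, 2.45 and 2.93 FPM in control and 16.7, 14.5 and 22.3 FPM in LIDPAD libraries. Ccl6 rose by 2.37 ± 0.19 on the log2 scale (adjusted p = 1.15e-05). Cxcl16 and Cxcl10 rose by 1.23 and 1.81 on the log2 scale. Cxcl12 was the member called lower (log2 change -0.26 ± 0.08, adjusted p = 0.0419), and lost that call when any library was left out, with adjusted p of 0.0534 to 0.152. In the inflammasome, TNF and interleukin list 14 of 20 tested rose and 1 fell (9 rose without LIDPAD library 3). Vcam1, an adhesion molecule for leukocytes, was at 9.13, 8.24 and 10.2 FPM in control and 40.1, 30.7 and 48.1 FPM in LIDPAD libraries. Vcam1 rose by 2.03 ± 0.16 on the log2 scale (adjusted p = 9.69e-06). Il1rn, the interleukin-1 receptor antagonist gene, was at 0.895, 0.572 and 0.942 FPM in control and 8.92, 6.60 and 13.3 FPM in LIDPAD libraries. Il1rn rose by 2.91 ± 0.25 on the log2 scale (adjusted p = 1.79e-05). Tnfaip3, a brake on NF-kappaB, was at 2.87, 2.03 and 3.49 FPM in control and 15.9, 10.2 and 14.0 FPM in LIDPAD libraries. Tnfaip3 rose by 2.08 ± 0.21 on the log2 scale (adjusted p = 4.42e-05). Il18 fell (log2 change -0.65 ± 0.16, adjusted p = 0.0121), Il1b overlapped (log2 change 0.63 ± 0.32, adjusted p = 0.174), and Tnf and Il6 did not pass the filter. Of 18 interferon response genes, 7 rose and 1 fell (4 rose without LIDPAD library 3 and 10 without control library 1). Ifi27l2b was at 5.98, 6.21 and 8.75 FPM in control and 58.6, 53.7 and 51.4 FPM in LIDPAD libraries (log2 change 2.90 ± 0.14, adjusted p = 5.54e-07), while the classical type I targets Isg15 (log2 change 0.15 ± 0.20, adjusted p = 0.625) and Ifit1 (log2 change 0.08 ± 0.31, adjusted p = 0.879) did not pass the test.

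Lymphocyte and neutrophil markers were scarce. Of 20 T and NK cell genes 4 passed the filter, and Klrk1 rose (log2 change 0.84 ± 0.23, adjusted p = 0.0178), a call lost without LIDPAD library 3 (adjusted p = 0.0826) or control library 2 (0.0582). Of 14 B and plasma cell genes 6 passed, and Ighm (log2 change 1.13 ± 0.20, adjusted p = 0.00157) and Igkc (log2 change 0.74 ± 0.20, adjusted p = 0.0176) rose, the latter not without LIDPAD library 1, LIDPAD library 3 or control library 2 (adjusted p = 0.0671, 0.0813 and 0.0543). Of 11 neutrophil genes only Csf3r passed the filter, and it was not called (log2 change 0.70 ± 0.30, adjusted p = 0.111). Red cell genes showed 0 calls in 5 tested, and 4 rose after rescaling. Among 15 genes of the sinusoidal endothelium, 4 rose and 2 fell (8 and 1 after rescaling), and their summed level was 474 to 518 FPM in control and 489 to 519 FPM in LIDPAD libraries. Plvap (log2 change 0.94 ± 0.12, adjusted p = 0.000212), Vwf (log2 change 1.25 ± 0.14, adjusted p = 0.000109) and Cd34 (log2 change 1.79 ± 0.25, adjusted p = 0.00035) rose, which are markers of other vessels and of capillarised sinusoids. Lyve1, a hyaluronan receptor of normal sinusoids and lymphatics, rose too (log2 change 0.78 ± 0.21, adjusted p = 0.0193), a call lost without LIDPAD library 3 (adjusted p = 0.0862), control library 1 (0.051) or control library 2 (0.0628). Dnase1l3 (log2 change -0.65 ± 0.11, adjusted p = 0.00127) and the receptor gene Kdr (log2 change -0.39 ± 0.09, adjusted p = 0.0101) fell, the latter not without LIDPAD library 1 (adjusted p = 0.0587), and Stab2 was not called (log2 change -0.18 ± 0.08, adjusted p = 0.12).

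Lysosomal genes rose in 15 of 22 tested members, with none lower and a median of 0.45. Psap, the precursor of the saposins, was at 296, 279.9 and 281 FPM in control and 559, 538 and 571 FPM in LIDPAD libraries. Psap rose by 0.96 ± 0.09 on the log2 scale (adjusted p = 3.61e-05). Hexa was at 38.2, 33.4 and 32.9 FPM in control and 64.5, 65.2 and 64.4 FPM in LIDPAD libraries. Hexa rose by 0.89 ± 0.09 on the log2 scale (adjusted p = 6.69e-05). Ctss, a protease of antigen-presenting cells, was at 23.2, 12.9 and 19.2 FPM in control and 80.1, 76.4 and 91.6 FPM in LIDPAD libraries. Ctss rose by 2.17 ± 0.18 on the log2 scale (adjusted p = 1.38e-05). Ctsl, Lamp2 and Npc1 did not pass the test. The factor gene Tfeb, which drives lysosomal genes, was at 5.57, 6.56 and 4.19 FPM in control and 5.99, 8.03 and 6.37 FPM in LIDPAD libraries. For Tfeb the log2 change was 0.31 ± 0.18 (adjusted p = 0.245), which missed the threshold.

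Matrix genes were raised. Of 24 collagens and structural matrix genes, 22 rose and 2 fell (median 1.43). Col1a1, the main chain of type I collagen, was at 3.79, 6.98 and 4.14 FPM in control and 64.2, 48.4 and 57.5 FPM in LIDPAD libraries. Col1a1 rose by 3.42 ± 0.20 on the log2 scale (adjusted p = 1.37e-06). Col1a2 was at 7.79, 11.1 and 10.9 FPM in control and 76.0, 65.6 and 75.7 FPM in LIDPAD libraries. Col1a2 rose by 2.82 ± 0.14 on the log2 scale (adjusted p = 5.54e-07). Col3a1 was at 29.9, 31.1 and 27.5 FPM in control and 264, 222 and 253 FPM in LIDPAD libraries. Col3a1 rose by 3.04 ± 0.10 on the log2 scale (adjusted p = 3.89e-08). Every LIDPAD library lay at several times the highest control library for these genes. Col6a3 and Col12a1 rose by 2.18 and 2.74 on the log2 scale, and the proteoglycan genes Lum and Dcn by 1.72 and 1.20. Fn1, which hepatocytes secrete as plasma fibronectin, fell, from 1167, 1388 and 1861 FPM in control to 890.1, 765 and 726 FPM in LIDPAD libraries (log2 change -0.87 ± 0.17, adjusted p = 0.00298), as did Col5a3 (log2 change -0.81 ± 0.13, adjusted p = 0.000933).

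Enzymes that process matrix rose in 16 of 20 tested members (none fell, median 1.53), while Mmp8 and Mmp9 did not pass the filter. Lox, which crosslinks collagen, was at 0, 0.145 and 0.0802 FPM in control and 3.37, 2.47 and 2.31 FPM in LIDPAD libraries. Lox rose by 2.48 ± 0.24 on the log2 scale (adjusted p = 3.77e-05). Loxl2 was at 6.19, 5.25 and 6.15 FPM in control and 18.0, 15.6 and 17.4 FPM in LIDPAD libraries. Loxl2 rose by 1.46 ± 0.13 on the log2 scale (adjusted p = 2.17e-05). Adamts2, which trims procollagen, was at 3.93, 3.59 and 4.88 FPM in control and 14.8, 14.0 and 14.1 FPM in LIDPAD libraries (log2 change 1.68 ± 0.14, adjusted p = 1.86e-05), and the inhibitor genes Timp2 and Timp1 rose by 1.51 and 1.81 on the log2 scale. Mmp13, the main interstitial collagenase of the mouse, was at 0, 0 and 0.234 FPM in control and 2.71, 3.26 and 3.96 FPM in LIDPAD libraries (log2 change 2.73 ± 0.25, adjusted p = 2.83e-05), while Mmp14 was not called (log2 change -0.16 ± 0.11, adjusted p = 0.329).

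In the TGF beta list, 17 of 24 tested rose and 1 fell (median 0.85). Among ligands and their binding proteins, Tgfb1 ranged from 3.31 to 4.88 FPM in control and from 6.57 to 9.36 FPM in LIDPAD libraries (log2 change 0.83 ± 0.18, adjusted p = 0.00623), and Tgfb2 and Ltbp3 rose by 1.25 and 1.78 on the log2 scale. The receptor gene Tgfbr2 was at 25.7, 19.0 and 33.2 FPM in control and 70.7, 62.2 and 61.4 FPM in LIDPAD libraries (log2 change 1.34 ± 0.17, adjusted p = 0.000196), and Tgfbr1 rose by 0.51. Among integrin chains that release the ligand from its latent form, Itgb8 was at 0.856, 0.756 and 0.590 FPM in control and 5.69, 4.57 and 3.72 FPM in LIDPAD libraries. Itgb8 rose by 2.05 ± 0.21 on the log2 scale (adjusted p = 5.36e-05). Itgb6 was at 0, 0 and 0.111 FPM in control and 1.07, 1.07 and 1.16 FPM in LIDPAD libraries. Itgb6 rose by 1.58 ± 0.25 on the log2 scale (adjusted p = 0.000839). Of target genes, Thbs1 was at 0.804, 0.999 and 1.67 FPM in control and 10.4, 10.3 and 13.3 FPM in LIDPAD libraries. Thbs1 rose by 2.86 ± 0.21 on the log2 scale (adjusted p = 7.98e-06). Ccn2 was at 1.37, 1.64 and 2.46 FPM in control and 5.87, 6.87 and 10.2 FPM in LIDPAD libraries. Ccn2 rose by 1.80 ± 0.24 on the log2 scale (adjusted p = 0.00025). Smad2 (log2 change -0.23 ± 0.12, adjusted p = 0.196), Smad3 (log2 change -0.21 ± 0.14, adjusted p = 0.303) and Smad7 (log2 change 0.15 ± 0.17, adjusted p = 0.542) did not pass the test, and Smad4 fell (log2 change -0.45 ± 0.10, adjusted p = 0.00598).

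Of 18 genes of stellate cells and myofibroblasts, 16 were tested, and 12 of these rose with none lower (median 0.93). Acta2, the actin of contractile myofibroblasts, was at 1.43, 1.02 and 1.67 FPM in control and 3.96, 5.80 and 4.40 FPM in LIDPAD libraries. Acta2 rose by 1.48 ± 0.21 on the log2 scale (adjusted p = 0.000429). Pdgfrb was at 11.1, 11.3 and 13.5 FPM in control and 29.9, 23.1 and 25.5 FPM in LIDPAD libraries. Pdgfrb rose by 1.10 ± 0.13 on the log2 scale (adjusted p = 0.000129). Lrat, the vitamin A-storing enzyme of quiescent stellate cells, was at 33.3, 24.7 and 37.2 FPM in control and 60.4, 54.8 and 53.9 FPM in LIDPAD libraries. Lrat rose by 0.84 ± 0.14 on the log2 scale (adjusted p = 0.00116). Postn and Vim rose by 1.50 and 1.51 on the log2 scale, and Tagln and Thy1 did not pass the filter. Summed levels were 325 to 371 FPM in control and 498 to 530 FPM in LIDPAD libraries. Of 15 genes of bile duct and ductular cells, 9 were tested and 7 rose (median 1.22), with summed levels of 274 to 369 FPM in control and 792 to 945 FPM in LIDPAD libraries. Krt8 was at 181, 129 and 167 FPM in control and 465, 409 and 472 FPM in LIDPAD libraries. Krt8 rose by 1.51 ± 0.13 on the log2 scale (adjusted p = 1.90e-05). Krt23 was at 0.698, 0.246 and 0.548 FPM in control and 6.33, 5.10 and 5.22 FPM in LIDPAD libraries. Krt23 rose by 2.62 ± 0.22 on the log2 scale (adjusted p = 1.90e-05). Epcam was at 0.534, 0.565 and 0.415 FPM in control and 3.30, 2.99 and 1.51 FPM in LIDPAD libraries. Epcam rose by 1.58 ± 0.27 on the log2 scale (adjusted p = 0.00132). Sox9, a transcription factor of bile duct cells, did not pass the test (log2 change 0.43 ± 0.19, adjusted p = 0.122). Krt19 was at 0.158 to 0.849 FPM in control and 0.970 to 2.25 FPM in LIDPAD libraries and did not pass the filter, and Krt8 and Krt18 are also made by hepatocytes.

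Genes of growth and cell shape were higher. Of 13 cell cycle genes tested (of 22), 10 rose and none fell (median 1.62). Mki67, a marker of dividing cells, was at 1.91, 2.09 and 1.39 FPM in control and 17.6, 11.0 and 12.8 FPM in LIDPAD libraries. Mki67 rose by 2.62 ± 0.20 on the log2 scale (adjusted p = 9.28e-06). Top2a was at 1.19, 1.66 and 0.981 FPM in control and 11.0, 8.27 and 9.12 FPM in LIDPAD libraries. Top2a rose by 2.49 ± 0.19 on the log2 scale (adjusted p = 9.69e-06). The cyclin gene Ccnd1 was at 11.1, 7.94 and 10.6 FPM in control and 63.2, 34.3 and 64.3 FPM in LIDPAD libraries. Ccnd1 rose by 2.35 ± 0.22 on the log2 scale (adjusted p = 3.14e-05). Cdkn1a, the p21 inhibitor of division, was at 0.435, 0.181 and 1.76 FPM in control and 7.38, 4.27 and 4.50 FPM in LIDPAD libraries. Cdkn1a rose by 2.34 ± 0.39 on the log2 scale (adjusted p = 0.00109). Which cells carried these transcripts cannot be told from bulk RNA. Of 17 cytoskeleton, annexin and S100 genes tested, 17 rose (median 1.51). S100a11 was at 1.61, 1.19 and 2.49 FPM in control and 22.5, 15.0 and 16.8 FPM in LIDPAD libraries. S100a11 rose by 3.06 ± 0.22 on the log2 scale (adjusted p = 6.85e-06). Anxa5 was at 61.3, 53.1 and 76.6 FPM in control and 267, 278 and 255 FPM in LIDPAD libraries. Anxa5 rose by 2.07 ± 0.13 on the log2 scale (adjusted p = 2.02e-06). Of 11 oncofetal and liver tumour genes tested, 6 rose and 1 fell. H19, an imprinted RNA of fetal liver, was at 0.0820, 0 and 0.255 FPM in control and 3.72, 1.25 and 1.69 FPM in LIDPAD libraries. H19 rose by 2.07 ± 0.34 on the log2 scale (adjusted p = 0.000988). Cd44 was at 11.4, 6.94 and 6.95 FPM in control and 30.5, 24.2 and 30.8 FPM in LIDPAD libraries. Cd44 rose by 1.73 ± 0.18 on the log2 scale (adjusted p = 6.52e-05). Afp was at 3.69, 5.92 and 4.40 FPM in control and 4.02, 3.40 and 2.85 FPM in LIDPAD libraries (log2 change -0.39 ± 0.20, adjusted p = 0.179) and Tff3 fell (log2 change -1.81 ± 0.28, adjusted p = 0.000822). Gpc3 did not pass the filter and Igf2 was at 0 in every library.

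The diet effect at 16 weeks was set against that at the neighbouring durations, 12 weeks (2 libraries per diet) and 32 weeks (4 control and 5 LIDPAD libraries), by testing the difference between the effects in a joint fit. Against week 12, 0 of 15917 genes differed (limma; 258 genes, 1.62%, at an unadjusted p under 0.05, and 1070 of 14699 in a fit of the 2 durations alone, with 0 called). The cholesterol list had a median log2 change of -1.94 at both durations. The median of the lipid-associated macrophage list was 1.73 at week 12 and 2.69 at week 16, that of the collagen list 0.91 and 1.43, and that of the TGF beta list 0.28 and 0.85. No member passed the test of the difference between durations. That test took its spread from weeks 12, 16 and 32 together. In the fit of the 2 durations alone, 7.28% of genes had an unadjusted p under 0.05 and the smallest adjusted p was 0.0887 (limma). With 2 libraries per diet at week 12, real differences can be missed. The clock ratio of Arntl to Dbp at week 12 was 0.92 and 1.92 in control and -1.84 and -1.73 in LIDPAD libraries, and the part of the hour in these differences was not tested. Reads of the week 12 libraries were divided among the sample columns differently from those of week 16.

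Against week 32, 52 of 15917 genes (0.327%) differed in their diet effect, with the signed log2 change larger at week 16 for 25 and smaller for 27. At an unadjusted p under 0.05 (limma) it was 2742 genes (17.2%), so differences that missed the adjusted threshold may be many. Mfsd2a, a transporter of lysophospholipids that is induced on fasting, was at 5.10, 8.56 and 16.2 FPM in control and 83.3, 89.9 and 99.1 FPM in LIDPAD libraries at week 16. Mfsd2a rose by 3.27 ± 0.29 on the log2 scale (adjusted p = 2.52e-05). Its mean at week 32 was 51.1 FPM in control and 32.5 FPM in LIDPAD libraries, and the Mfsd2a effects differed by 3.84 ± 0.51 (adjusted p = 0.00899). Alas1, the rate-limiting enzyme of haem synthesis, was at 93.9, 76.6 and 117 FPM in control and 325, 485 and 439.6 FPM in LIDPAD libraries at week 16. Alas1 rose by 2.12 ± 0.17 on the log2 scale (adjusted p = 1.34e-05). Alas1 averaged 379 and 155 FPM at week 32 (difference 3.36 ± 0.50, adjusted p = 0.0105). Dio1, which activates thyroid hormone, ranged at week 16 from 3.03 to 9.04 FPM in control and from 42.5 to 65.6 FPM in LIDPAD libraries (log2 change 3.36 ± 0.30, adjusted p = 2.59e-05). Dio1 averaged 30.3 and 37.3 FPM at week 32 (difference 3.32 ± 0.62, adjusted p = 0.0275). Angptl4, a fasting-induced inhibitor of lipoprotein lipase, averaged 72.7 and 29.2 FPM at week 32 and rose at week 16 (log2 change 1.39 ± 0.34, adjusted p = 0.0112; difference 2.70 ± 0.41, adjusted p = 0.0105). Ubd rose at both durations and more at week 32, where it averaged 0.0712 and 30.4 FPM (difference -2.28 ± 0.47, adjusted p = 0.046). Limch1, an actin-binding protein, averaged 0.644 and 8.49 FPM at week 32 (difference -2.01 ± 0.38, adjusted p = 0.0311). Its rise at week 16 (log2 change 0.87 ± 0.21, adjusted p = 0.0113) had an adjusted p of 0.0517 without LIDPAD library 2.

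**Figure D4:**
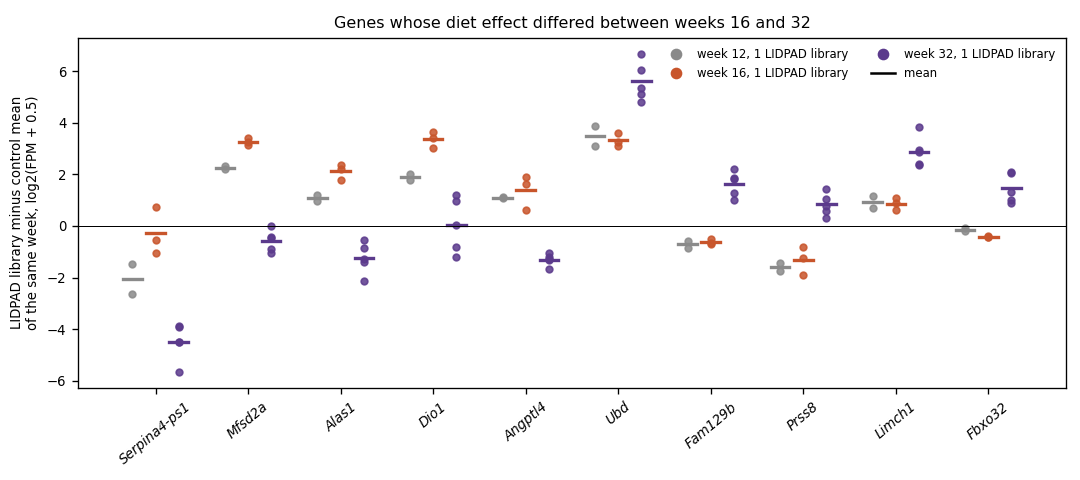
For 10 genes whose diet effect differed between weeks 16 and 32, each LIDPAD library minus the mean of the control libraries of the same week, on log2(FPM + 0.5), in grey for week 12, orange for week 16 and purple for week 32, with bars at the means. Mfsd2a, Alas1 and Angptl4 lie above 0 at week 16 and below 0 at week 32, while Fam129b, Prss8 and Fbxo32 lie below 0 at week 16 and above 0 at week 32.

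Calls against week 32 depended on single libraries. Leaving out 1 library at a time gave between 0 calls (without week 16 LIDPAD library 3) and 137 (without week 32 LIDPAD library 4). The differences of Mfsd2a, Alas1 and Angptl4 were each lost in 1 of 15 such fits, those of Dio1 and Limch1 in 7 and that of Ubd in 10. Rescaling gave 40 calls, with 11 larger and 29 smaller at week 16. When week 32 was limited to the 6 libraries whose reads were divided among the 4 sample columns as at week 16, 1371 genes differed. The clock ratio was 1.13 to 5.20 in the week 32 control and 1.52 to 3.54 in the week 32 LIDPAD libraries, against -3.45 to -1.61 at week 16, and its part in the differences was not tested. List medians at week 32 were -3.33 for male-pattern genes (-0.74 at week 16), 3.60 for lipid-associated macrophages (2.69), 1.60 for collagens (1.43), -1.68 for cholesterol synthesis (-1.94) and 0.86 for cell cycle genes (1.62). Of these lists, 1 male-pattern gene (Serpina4-ps1) and 1 cell cycle gene (Cdkn1a) were called as different between the durations. At an unadjusted p under 0.05 (limma) it was 10 of 18 male-pattern, 4 of 16 macrophage and 5 of 24 collagen genes. For cholesterol synthesis it was 2 of 25 and for the cell cycle 3 of 13, beside 17.2% of all genes tested.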

How the data were processed

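RNA sequencing of liver was analysed for 24 samples of week 16 (12 per diet), with weeks 12 and 32 used only to compare diet effects. Gene tables of 54532 genes were deposited as a size-factor-scaled signal, FPM, one column per sample. HISAT2, featureCounts, DESeq2 and GRCm38 are named in the submitters' processing notes, without versions. At week 16 the deposited values were whole multiples of what 1 read is worth, within 0.02 reads for 100% of values, so depth and read counts could be recovered. Values of 2 reads were 5.36 times as frequent as values of 1 read. The recovered reads may therefore not be independent counts, which was not tested.

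Columns were averaged in blocks of 4 into libraries. Genes with at least 1 FPM in 3 libraries were kept. The log2(FPM + 0.5) values were tested with limma 3.58.1 (R 4.3.3, empirical Bayes with trend, two-sided, Benjamini-Hochberg adjustment over all tested genes, called at an adjusted p under 0.05). Differences between durations were contrasts in 1 fit of 6 groups. Alternatives were edgeR 4.0.16 and DESeq2 1.42.0 on recovered reads, other scalings, filters and pseudocounts, and leaving out each library. On simulated data the test recovered 87.5% of 200 genes changed 2-fold (13297 genes, 5.91% of calls false) and 100% of those changed 4-fold (13320 genes, 6.54% false). The changed genes were drawn from those with a control mean of at least 2 FPM, so these shares do not cover genes at lower levels. The simulation changed only 200 genes and drew independent counts, while 28.2% of genes were called in the data. Its shares may therefore differ from those of the real comparison.

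The gene lists and the members described were chosen with earlier results of these data known. Named genes were the 12 largest rises and falls among called genes with a group mean of at least 5 FPM, in each list the 3 genes of lowest p, list members called against the list's direction and the 5 most different genes each way between weeks 16 and 32 among called genes with at least 5 FPM in 1 group. Predicted genes were not named by this rule. Other members were named for their known role after their values were seen. Gene positions are from the GENCODE annotation of GRCm38 and promoters from RefSeq. Weeks 1, 4, 8 and 48 were not used here, and some gene results are not reported here.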

Additional observations from a re-analysis of the deposited data

Results flagged for a closer look

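The diet effect of 10 named genes differed between weeks 16 and 32 by a test of that difference (limma, joint fit), and these are the 5 most different genes in each direction among those of the 52 called that averaged at least 5 FPM in 1 group and are not predicted genes. Gtpbp4-ps1 (2.91) and Mir1933 (-1.93) differed by more than some of them at lower levels. Larger signed log2 changes at week 16 were found for Serpina4-ps1, a serpin pseudogene (difference 4.21 ± 0.69, adjusted p = 0.0191), for Mfsd2a (3.84), for Alas1 (3.36), for Dio1 (3.32) and for Angptl4 (2.70). Serpina4-ps1 changed by -0.28 at week 16, where it was not called (adjusted p = 0.639), and by -4.49 at week 32 on the log2 scale. Its level at week 16 was 11.3 to 25.8 FPM in control and 8.92 to 31.7 FPM in LIDPAD libraries. In control libraries it averaged 115 FPM at week 12 and 197 FPM at week 32, and in LIDPAD libraries 29.4 and 7.89 FPM. Smaller signed log2 changes at week 16 were found for Ubd (-2.28) and Limch1 (-2.01), which were higher on LIDPAD at both durations. Smaller signed changes were also found for Fam129b (-2.26, adjusted p = 0.0311), Prss8 (-2.17, adjusted p = 0.0191) and Fbxo32 (-1.90, adjusted p = 0.0382). The log2 changes of these genes were below 0 at week 16 and above 0 at week 32. Fam129b, an anti-apoptotic membrane-associated protein, changed by -0.63 at week 16 and 1.63 at week 32. At week 16 Fam129b overlapped between the diets (limma adjusted p = 0.0497) and kept its call only without control library 2. Prss8, a membrane serine protease, changed by -1.33 and 0.83. It was at 17.6 to 21.3 FPM in control and 4.82 to 10.7 FPM in LIDPAD libraries at week 16. Prss8 averaged 6.39 and 12.0 FPM at week 32. Fbxo32, a ubiquitin ligase subunit known from muscle wasting, changed by -0.42 and 1.47, and was not called at week 16 (adjusted p = 0.057). It was at 4.99 to 5.82 and 3.75 to 3.88 FPM at week 16 and averaged 1.94 and 6.52 FPM at week 32. None of the 10 differences was called without week 16 LIDPAD library 3.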

How the results depend on the processing

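Of all 3928 called genes, 2398 were called in the same direction in every fit that left out 1 library. Of the 358 called genes followed, which were named genes and list members, 294 were called in every such fit. Of these 358, 0 changed direction under any alternative run. Leaving out 1 library gave 2810 (without LIDPAD library 1) to 4058 (without control library 1) called genes. Counts that moved by more than 1.5 times were as follows. Treating each column as a sample, and so the columns of a block as separate samples, gave 6530 genes, 3176 of them lower. A filter of 5 FPM gave 1506 higher genes among 9758 tested. Rescaling to a total of 1000000 gave 3958 higher and 803 lower. For the difference between weeks 16 and 32, a fit of those weeks alone gave 16 genes, no filter 18, week 32 libraries of the same column pattern 1371, and leaving out 1 library 0 to 137, against 52, and the cause was not tested. Deviations of same-numbered libraries of the 2 diets correlated with r of -0.099, -0.013 and -0.039, so the numbers were not taken as pairs, and a replicate block gave 3616 genes (2105 higher and 1511 lower). With 3 libraries per diet, 87.5% of simulated 2-fold changes were recovered in genes with a control mean of at least 2 FPM. The simulation changed far fewer genes than were called in the data, so this share may differ from that of the real comparison. Smaller changes can be missed, and recovery at lower levels was not tested. The number of mice behind a library is not known.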

Other observations

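Gene families outside the lists were grouped by symbol after the values had been seen, and are described by counts alone, beside 16.3% of all tested genes called higher and 12.0% called lower. Of 43 histone genes tested, 35 were higher on LIDPAD and 0 lower, with a median log2 change of 1.12, and Hist1h4m (2.31), Hist1h4n (2.24) and Hist1h3b (2.03) changed most among them. Histone genes are near-copies between which reads may be split. Of 6 Fc receptor genes, which bind antibodies on myeloid cells, 4 were higher, with Fcgr4 at 1.99 and Fcer1g at 1.44, while the inhibitory Fcgr2b was at -0.08 and was not called. All 6 tested Ms4a genes were higher. Of 20 integrin genes 10 were higher and 1 lower, and of 28 genes of the ADAM and ADAMTS proteases 15 were higher and 1 lower, among them Adamts15 (2.25) and Adam8 (2.18). Of 11 laminin genes 8 were higher, with Lama2 at 1.87, and 1 was lower (Lama3, -0.94).

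Families of hepatocyte products held more lower than higher members. Of 22 serpin genes of clades A, C, D, F and G, 16 were lower and 1 higher, with a median of -0.81. Serpina1e changed by -2.27, though the Serpina1 copies share reads, and Serpina3g by 1.21. Of 13 carboxylesterase genes 6 were lower and 2 higher (Ces3b -1.44, Ces2c 1.67), and of 5 alcohol dehydrogenase genes 4 were lower, among them Adh4 (-0.75). Of 17 UDP glucuronosyltransferase genes 4 were lower and 0 higher, with a median of -0.10. Further families had medians near 0. They were cytosolic ribosomal proteins (0 higher and 8 lower of 83), mitochondrial ribosomal proteins (4 and 0 of 78) and proteasome subunits (3 and 1 of 37). The others were Zfp zinc finger proteins (12 and 33 of 315) and Slc solute carriers (47 and 37 of 232).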
